A study of Mus musculus with 4 samples.

Results

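The genes described here are 32 sterol and fatty acid synthesis genes of the mouse, chosen by gene symbol from the deposited expression table without reference to a threshold. They comprise 5 genes of SREBP control, 8 enzymes from acetyl-CoA to squalene, 10 enzymes from squalene to cholesterol, the sterol transfer protein Stard4, 5 genes of fatty acid synthesis and 3 of fatty acid elongation and desaturation. All 32 were among the 32151 genes of the table, and all 32 passed the minimum level of 0.5 FPKM on average that left 17001 genes for testing. FPKM scales the reads of a gene to its exon length and to the assigned reads of the library. Whole kidney was profiled by RNA-seq in 2 ADPKD libraries (autosomal dominant polycystic kidney disease, genotype Pkd1fl/fl; Cre/Esr1+) and 2 wild-type (WT) libraries. Tamoxifen, which switches on Cre fused to an estrogen receptor, is listed at 10 mg/kg on postnatal day 10 for all 4 samples, WT included. The labels give neither the promoter of the Cre transgene nor the age or sex at collection, nor whether replicates were separate animals, so p-values measure the spread between these libraries, which may be technical in part.

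Sterol and fatty acid synthesis share cytosolic acetyl-CoA as building block and NADPH as reductant. Both pathways are transcribed under SREBP factors, which are held in the endoplasmic reticulum by Insig proteins and escorted by Scap to the Golgi for cleavage when membrane sterol is low. SREBP-2 mainly drives sterol enzymes and SREBP-1c mainly fatty acid enzymes, and in many cell types the targets of each move together. In the kidney the proximal tubule takes up and burns fatty acids as its main fuel, and sterol synthesis serves membranes throughout the organ.

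The libraries held 18562606 and 19955120 assigned reads in ADPKD replicates 1 and 2, against 18385710 and 18001308 in WT replicates 1 and 2. The members drew between 39 reads (Fdps) and 9650 reads (Hmgcs1) in a library. Across genes, log2(FPKM + 1) correlated at 0.944 between the ADPKD libraries and at 0.960 between the WT libraries, against 0.861 to 0.895 between groups. A chi-square test of the recovered reads averaged 59.7 per gene between the ADPKD libraries and 52.8 between the WT libraries, so neither pair agreed within counting error. The targeted gene Pkd1 had 2.48 and 2.08 FPKM in ADPKD kidneys, against 1.97 and 2.12 FPKM in WT kidneys. Which exons the floxed allele loses is not given in the labels, so this level over the whole gene does not check the genotype. Xist, the RNA of the inactive X chromosome, was at 0.0180 and 29.6 FPKM in ADPKD replicates 1 and 2, against 0.0121 and 0.0217 FPKM in WT. The Y-linked gene Ddx3y was at 15.1 and 0.0482 FPKM in ADPKD replicates 1 and 2, against 11.5 and 8.46 FPKM in WT. Eif2s3y, Uty and Kdm5d, also Y-linked, were at 0.012 FPKM or less in ADPKD replicate 2. Each was at 1.04 FPKM or more in the other libraries. ADPKD replicate 2 thus had the expression pattern of a female and the other libraries that of males. Sex was therefore not balanced between the groups, and its part in the differences was not tested.

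Of the 32 members, 3 fell in ADPKD kidneys and none rose at an adjusted p below 0.05 (limma on log2(FPKM + 1), Benjamini-Hochberg over all 17001 genes). The 3 were Cyp51, the lanosterol demethylase, Me1, the cytosolic malic enzyme that supplies NADPH, and Ebp, the sterol isomerase. Their mean levels in ADPKD were 0.177, 0.254 and 0.516 of the WT means, in that order. Called members made up 9.38% of the set in the lower direction and 0% in the higher one, against 4.78% and 9.43% of all genes tested and 14.2% in either direction. At an unadjusted p below 0.05 the same fit gave 5 members lower (Cyp51, Me1, Ebp, Mvd and Acacb) and 3 higher (Srebf2, Pmvk and Scd2), which is 15.6% and 9.38% of the set against 11.1% and 23.5% of all genes tested. Limma-voom on the recovered reads called 1 member higher, Srebf2 (adjusted p = 0.0478), and 4 lower. The same setting called 2091 higher and 948 lower of all 17001 genes tested.

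Members differed in direction. Both ADPKD libraries stood above both WT libraries for 7 members, which is 21.9% of the set against 43.6% of all genes tested. Both stood below for 8 members, which is 25.0% against 21% of all genes. The groups overlapped for the other 17 members, and for 6019 of the 17001 genes tested. The median log2 fold change of the members was 0.0453, against 0.183 for all genes tested, and the members ran between -2.39 and 0.96. Scaling by median-of-ratios moved the median of all genes to 0.00845 and that of the members to -0.162, and under both scalings the members' median lay below that of all genes. Calls over all genes ran 1604 higher and 813 lower as deposited, 741 higher and 876 lower with median-of-ratios scaling, and 999 higher and 1102 lower with quantile normalization.

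**Figure D1:**
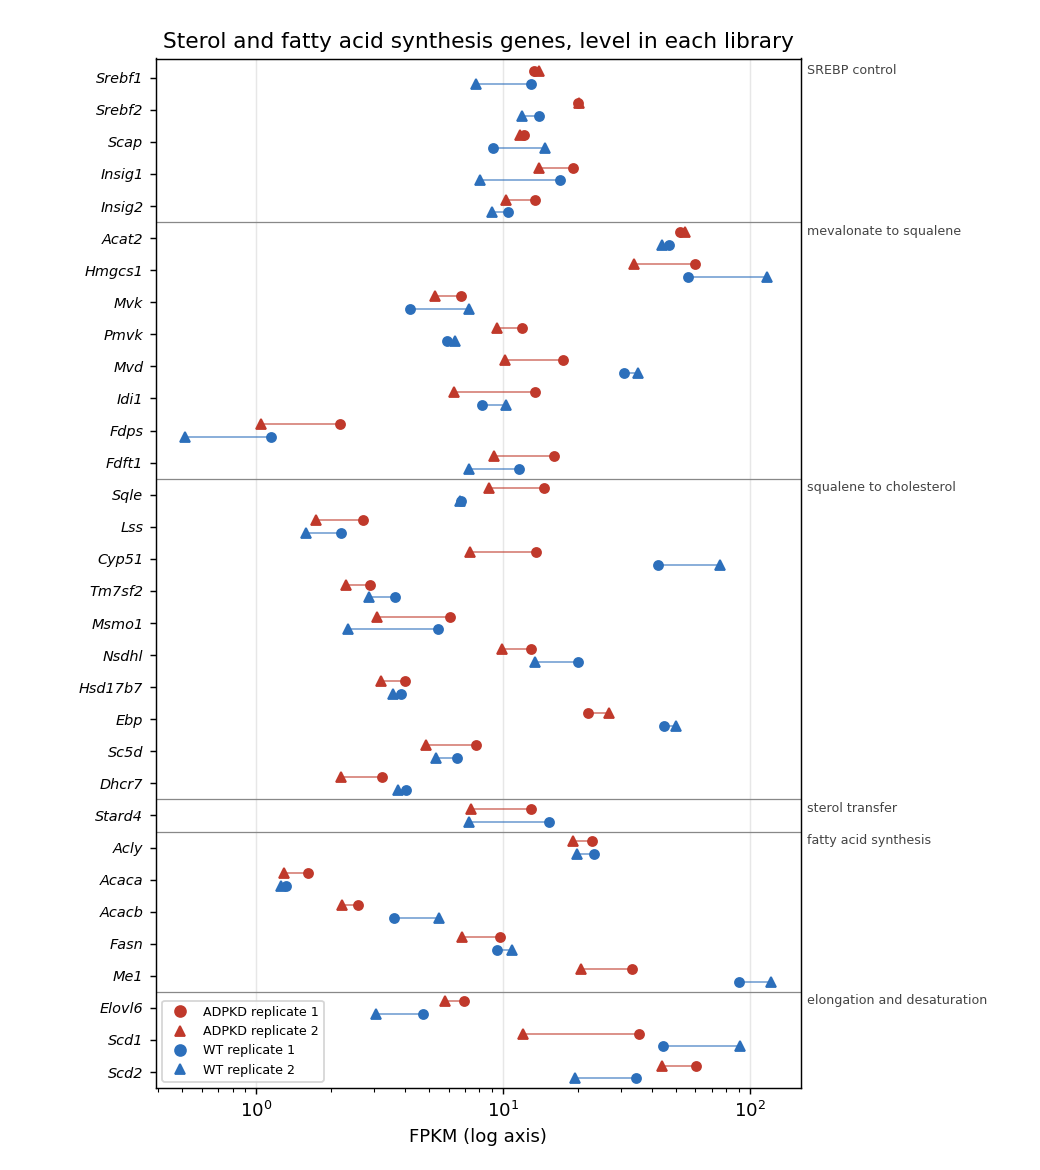
FPKM of each of the 32 genes on a log axis, with 1 point per library (ADPKD replicates 1 and 2, then WT replicates 1 and 2) and genes ordered by their step in the pathway. Cyp51, Me1 and Ebp have both ADPKD points left of both WT points. The groups overlap for 10 of the 18 enzymes from acetyl-CoA to cholesterol, against 6019 of the 17001 genes tested.

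**Figure D2:**
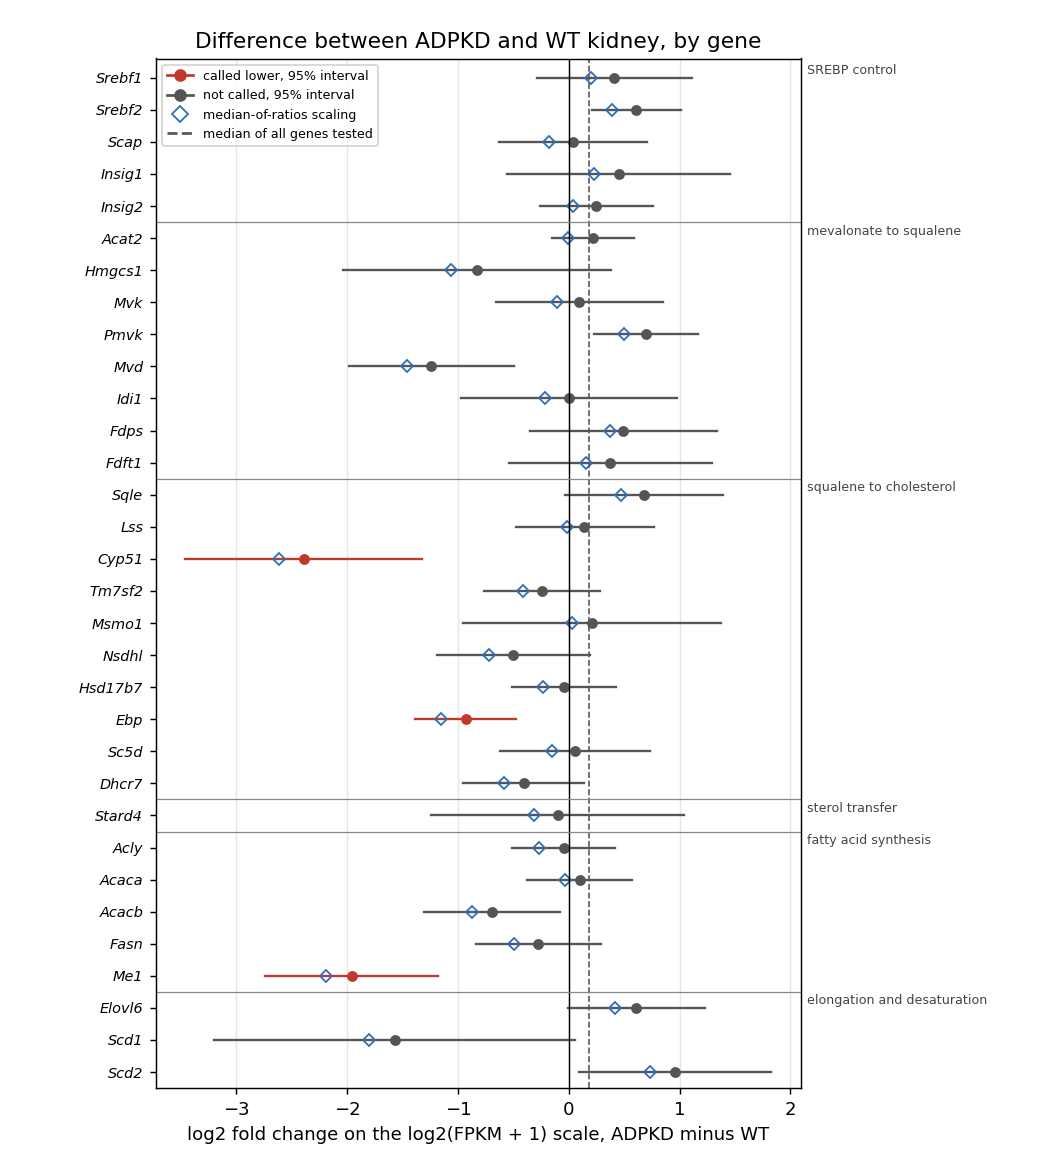
log2 fold change of ADPKD minus WT for each gene on the log2(FPKM + 1) scale, with its 95% interval from limma, and open diamonds for the value after median-of-ratios scaling. The 3 genes called lower sit at -2.39 (Cyp51), -1.96 (Me1) and -0.93 (Ebp), and the dashed line is the median of all genes tested at 0.183.

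Among the genes of SREBP control, none passed the test. All 5 had a log2 fold change above 0, as did 10901 of the 17001 genes tested. The median of the 5 was 0.41, against 0.183 for all genes. Scap was at -0.18 with median-of-ratios scaling and -0.16 with quantile normalization. Srebf2, which encodes SREBP-2 (chr15:82147181-82205379), had 20.0 and 20.2 FPKM in ADPKD kidneys, against 13.9 and 11.9 FPKM in WT kidneys. The ADPKD libraries were nearly equal and both above WT. The mean was 20.1 ± 0.112 FPKM in ADPKD and 12.9 ± 1.40 FPKM in WT (SD, n = 2 each), with a log2 fold change of 0.61 (SE 0.15, 95% interval 0.21 to 1.01) and a limma adjusted p of 0.0667. Srebf1, which encodes the SREBP-1 isoforms, had 13.3 and 14.0 FPKM in ADPKD, against 12.9 and 7.73 FPKM in WT, so the groups did not overlap but WT replicate 1 lay close to both ADPKD libraries (log2 fold change 0.41, limma adjusted p = 0.334). Without WT replicate 2 its log2 fold change was 0.0731. The table counts reads per gene, so it does not separate the SREBP-1a and SREBP-1c transcripts.

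The escort and the 2 anchors varied between libraries of a group. Scap, the SREBP escort, had 12.1 and 11.7 FPKM in ADPKD, against 9.11 and 14.7 FPKM in WT, where the WT libraries lay on either side of ADPKD. Insig1, an endoplasmic reticulum anchor and itself an SREBP target, had 19.1 and 14.0 FPKM in ADPKD, against 17.0 and 8.03 FPKM in WT. Insig2, the other anchor, had 13.4 and 10.3 FPKM in ADPKD, against 10.4 and 9.02 FPKM in WT. The groups overlapped for all 3, and the limma adjusted p was 0.934 for Scap, 0.456 for Insig1 and 0.410 for Insig2. The 95% interval of Insig1, -0.56 to 1.46 on the log2 scale, left room for a change of either sign. For Scap, 13.2% of the exon bases also lie under an exon of another gene, from which reads cannot be told apart without strand.

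Of the 8 enzymes from acetyl-CoA to squalene none passed the test, and their median log2 fold change was 0.156. Mvd, the mevalonate diphosphate decarboxylase (chr8:122433601-122443422), had 17.5 and 10.2 FPKM in ADPKD, against 30.9 and 35.1 FPKM in WT. Both ADPKD libraries lay well below WT, at a ratio of means of 0.420 and a log2 fold change of -1.24 (SE 0.28). Its limma adjusted p was 0.0555, and it was 0.0432 with median-of-ratios scaling and 0.0351 with limma-voom, so the call depended on the setting. Hmgcs1, the cytosolic HMG-CoA synthase at the entry of the pathway, had 59.7 and 33.9 FPKM in ADPKD, against 55.8 and 117 FPKM in WT. ADPKD replicate 1 lay between the WT libraries, and the log2 fold change of -0.83 had a 95% interval of -2.04 to 0.38 (limma adjusted p = 0.272). This fold change ran from -1.35 without WT replicate 1 to -0.30 without WT replicate 2. Hmgcs1, Mvd, Cyp51, Me1, Acacb, Fasn and Scd1 were each highest in WT replicate 2 and lowest in ADPKD replicate 2. The share of all genes tested with this order was not counted. Of all genes tested, 66% were lower in ADPKD replicate 2 than in ADPKD replicate 1.

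Pmvk, the phosphomevalonate kinase that acts just before Mvd, had 11.9 and 9.42 FPKM in ADPKD, against 5.91 and 6.36 FPKM in WT. Both ADPKD libraries lay above both WT libraries, opposite to its neighbour in the pathway, with a log2 fold change of 0.70 (SE 0.18) and a limma adjusted p of 0.0688. Acat2, the cytosolic acetoacetyl-CoA thiolase that makes the first condensation, had 51.8 and 54.4 FPKM in ADPKD, against 47.0 and 44.0 FPKM in WT. Its standard error was the smallest of this stretch, with non-overlapping groups and a limma adjusted p of 0.330 at a log2 fold change of 0.22 (SE 0.14), and that fold change was -0.00795 with median-of-ratios scaling. Mvk, the mevalonate kinase, had 6.77 and 5.28 FPKM in ADPKD, against 4.19 and 7.27 FPKM in WT. Idi1, the isopentenyl diphosphate isomerase, had 13.4 and 6.29 FPKM in ADPKD, against 8.21 and 10.3 FPKM in WT. The ADPKD libraries of Idi1 lay on either side of WT, and its log2 fold change was 0.00284. Fdft1, the squalene synthase, had 16.0 and 9.20 FPKM in ADPKD, against 11.6 and 7.25 FPKM in WT. Fdps, the farnesyl diphosphate synthase, had 2.18 and 1.04 FPKM in ADPKD, against 1.15 and 0.515 FPKM in WT. The groups overlapped for Mvk, Idi1, Fdft1 and Fdps, with limma adjusted p between 0.336 (Fdps) and 0.997 (Idi1). Exons of other genes cover 26.7% of the Fdps exon bases and 18.8% of those of Fdft1 (Ctsb, a lysosomal protease gene).

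Of the 10 enzymes from squalene to cholesterol, 2 fell (Cyp51 and Ebp), none rose, and the median log2 fold change was -0.141. Cyp51 (chr5:4081145-4104746, minus strand), which removes a methyl group from lanosterol, had 13.6 and 7.33 FPKM in ADPKD kidneys, against 42.5 and 75.5 FPKM in WT kidneys. Every ADPKD value lay far below every WT value, although the WT libraries also differed from each other. It averaged 10.5 ± 4.44 FPKM in ADPKD and 59.0 ± 23.4 FPKM in WT (SD, n = 2 each), with a log2 fold change of -2.39 (SE 0.40, 95% interval -3.46 to -1.32) and a limma adjusted p of 0.0336. Cyp51 was the member with the lowest log2 fold change of the 32. Exons of Akap9 cover 3.76% of its exon bases.

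Ebp (chrX:8185329-8193512, minus strand), which moves a double bond in the sterol ring, had 22.0 and 26.9 FPKM in ADPKD kidneys, against 44.6 and 50.1 FPKM in WT kidneys. Both groups were tight and clearly apart. It averaged 24.4 ± 3.49 FPKM in ADPKD and 47.3 ± 3.90 FPKM in WT (SD, n = 2 each), with a log2 fold change of -0.93 (SE 0.17) and a limma adjusted p of 0.0380. Unlike most members, Ebp was higher in ADPKD replicate 2 than in replicate 1.

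The calls of Cyp51, Ebp and Me1 kept their direction under all 10 alternative settings but not their side of the threshold. Without ADPKD replicate 1, ADPKD replicate 2 or WT replicate 2 the adjusted p of Cyp51 was 0.0703, 0.117 and 0.0858 and that of Me1 was 0.0570, 0.0967 and 0.0819. Ebp lost its call when any of the 4 libraries was left out, at an adjusted p of 0.0979 to 0.151, and also under median-of-ratios scaling (0.0619). When ADPKD replicate 2 was left out no gene of all those tested was called, although 5039 had an unadjusted p below 0.05. Without the filter on low values limma called 1 gene of 32151, and the adjusted p was 0.0923 for Cyp51, 0.0821 for Me1 and 0.0853 for Ebp.

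The other enzymes of this stretch did not pass the test. Sqle, the squalene epoxidase and a control point of the pathway, had 14.6 and 8.74 FPKM in ADPKD, against 6.72 and 6.70 FPKM in WT. Both ADPKD libraries were above WT, where the values were nearly equal, with a ratio of means of 1.74 and a log2 fold change of 0.68 (95% interval -0.03 to 1.39, limma adjusted p = 0.156). Nsdhl, which removes a carboxyl group from the sterol ring and is X-linked like Ebp, had 13.0 and 9.84 FPKM in ADPKD, against 20.1 and 13.4 FPKM in WT. Dhcr7, the last reductase of the Kandutsch-Russell branch, had 3.24 and 2.21 FPKM in ADPKD, against 4.03 and 3.73 FPKM in WT. Both genes had all ADPKD values below WT, and neither passed the test (Nsdhl -0.50, limma adjusted p = 0.248; Dhcr7 -0.40, limma adjusted p = 0.242).

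The remaining 5 enzymes overlapped between the groups. Msmo1, which oxidises ring methyl groups downstream of Cyp51, had 6.09 and 3.09 FPKM in ADPKD, against 5.46 and 2.34 FPKM in WT, and replicate 1 was the higher library in both groups. Lss, the lanosterol synthase just before Cyp51, had 2.69 and 1.75 FPKM in ADPKD, against 2.20 and 1.59 FPKM in WT. The lower level of Cyp51 in ADPKD therefore had no counterpart past the threshold in Lss or Msmo1. Whether the change of Cyp51 differed from that of Lss or Msmo1 was not tested. Tm7sf2, a sterol reductase that acts on the product of Cyp51, had 2.89 and 2.30 FPKM in ADPKD, against 3.63 and 2.86 FPKM in WT. Hsd17b7, a sterol ketone reductase, had 4.01 and 3.19 FPKM in ADPKD, against 3.85 and 3.59 FPKM in WT. Sc5d, the lathosterol desaturase, had 7.76 and 4.84 FPKM in ADPKD, against 6.49 and 5.33 FPKM in WT. These 5 had log2 fold changes between -0.24 (Tm7sf2) and 0.21 (Msmo1) and limma adjusted p of 0.435 or more. Stard4, which carries sterol between membranes, had 12.9 and 7.40 FPKM in ADPKD, against 15.3 and 7.24 FPKM in WT, with replicate 1 the higher library in both groups (log2 fold change -0.10, limma adjusted p = 0.890).

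The promoter of Hmgcs1 is shown because it alone among the 26 members with a RefSeq promoter window matched TCACNCCAC. This was the only string searched for the sterol response element, so other forms of the element would be missed. The promoters of Cyp51, Ebp and Me1 are shown because these genes were called. Each run is the 250 bases before a RefSeq start (GRCm38.p6), for Me1 the one nearest the gene's annotated start, and reads 5′ to 3′ on the strand of the gene. Capitals mark TCACNCCAC or CCAAT, the box bound by NF-Y, on either strand, so CCAAT on the other strand reads ATTGG.
Cyp51, chr5:4104698-4104947, minus strand: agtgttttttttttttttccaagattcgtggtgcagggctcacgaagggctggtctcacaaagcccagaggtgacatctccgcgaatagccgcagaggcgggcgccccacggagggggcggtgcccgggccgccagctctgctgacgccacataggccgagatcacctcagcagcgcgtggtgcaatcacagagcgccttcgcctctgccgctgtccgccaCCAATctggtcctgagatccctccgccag
Ebp, chrX:8193513-8193762, minus strand: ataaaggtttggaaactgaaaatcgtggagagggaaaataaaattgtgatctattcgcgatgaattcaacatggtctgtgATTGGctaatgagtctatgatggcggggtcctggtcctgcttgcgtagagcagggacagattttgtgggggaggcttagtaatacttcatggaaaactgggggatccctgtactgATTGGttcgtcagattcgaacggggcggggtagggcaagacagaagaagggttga
Hmgcs1, chr13:119690101-119690350, plus strand: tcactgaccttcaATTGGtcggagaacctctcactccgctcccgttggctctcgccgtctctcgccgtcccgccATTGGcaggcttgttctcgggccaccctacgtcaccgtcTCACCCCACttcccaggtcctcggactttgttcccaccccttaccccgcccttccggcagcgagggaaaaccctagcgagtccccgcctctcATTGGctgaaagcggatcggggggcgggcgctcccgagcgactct
Me1, chr9:86695915-86696164, minus strand: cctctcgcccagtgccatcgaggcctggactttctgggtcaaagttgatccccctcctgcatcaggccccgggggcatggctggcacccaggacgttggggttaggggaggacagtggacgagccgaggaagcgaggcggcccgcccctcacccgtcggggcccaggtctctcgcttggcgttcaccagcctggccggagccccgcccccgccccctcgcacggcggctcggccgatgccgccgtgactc
The Cyp51 run has its CCAAT at -29, and the Ebp run has the box on the other strand at -170 and -55. The Hmgcs1 run holds TCACCCCAC at -137, and the Me1 run holds neither motif. The window of a second RefSeq start of Me1, not shown, holds the box on the other strand at -208.

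Over the RefSeq windows of 250 bases before to 50 after each start, 26 of the 32 members matched by symbol, with 35 windows, and Fdft1, Fdps, Scd1, Scd2, Sqle and Stard4 were not searched. CCAAT was in 23 of these windows (65.7%), against 12289 of all 32851 windows (37.4%). TCACNCCAC was in 1 member window (2.86%), against 408 of all (1.24%). The GC box GGGCGG was in 25 member windows (71.4%), against 11714 of all (35.7%), and the palindrome CACGTG was in 6 (17.1%), against 2349 (7.15%). All 4 motifs were searched on both strands, no motif contains another, and a match describes letters in the window, not a bound site.

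In fatty acid synthesis 1 of 5 genes fell (Me1), none rose, and the median log2 fold change was -0.276. Me1 (chr9:86581371-86695953, minus strand), which turns malate into pyruvate with release of NADPH, had 33.2 and 20.7 FPKM in ADPKD kidneys, against 90.0 and 122 FPKM in WT kidneys. The highest ADPKD value was well under the lowest WT value. It averaged 26.9 ± 8.88 FPKM in ADPKD and 106 ± 22.7 FPKM in WT (SD, n = 2 each), with a log2 fold change of -1.96 (SE 0.29, 95% interval -2.74 to -1.18) and a limma adjusted p of 0.0290. In WT kidneys Me1 had the highest mean FPKM of the 32 genes, and in ADPKD kidneys Acat2 had.

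The core enzymes that build palmitate did not follow Me1 past the threshold. Acly, which makes cytosolic acetyl-CoA from citrate, had 22.8 and 19.1 FPKM in ADPKD, against 23.4 and 19.8 FPKM in WT, so the groups nearly coincided (log2 fold change -0.0439, 95% interval -0.51 to 0.42, limma adjusted p = 0.883). Fasn, the fatty acid synthase, had 9.73 and 6.82 FPKM in ADPKD, against 9.44 and 10.8 FPKM in WT, with ADPKD replicate 2 the lowest library (log2 fold change -0.28, 95% interval -0.84 to 0.29, limma adjusted p = 0.417). Acaca, the cytosolic acetyl-CoA carboxylase, had 1.62 and 1.29 FPKM in ADPKD, against 1.32 and 1.26 FPKM in WT, which overlapped. Acacb, the carboxylase at the outer mitochondrial membrane whose product restrains fatty acid import, had 2.58 and 2.22 FPKM in ADPKD, against 3.61 and 5.51 FPKM in WT. Both ADPKD libraries of Acacb were below WT, at a ratio of means of 0.525 and a log2 fold change of -0.69 (SE 0.23, 95% interval -1.31 to -0.08), with a limma adjusted p of 0.116.

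The 3 genes of elongation and desaturation had non-overlapping groups in opposite directions, and none passed the test. Over all genes tested, both ADPKD libraries stood above both WT libraries for 43.6% and below them for 21%. Scd2 (chr19:44293674-44306864), a stearoyl-CoA desaturase, had 60.1 and 43.9 FPKM in ADPKD, against 34.4 and 19.5 FPKM in WT. Scd1 (chr19:44394455-44407879), its paralog nearby, had 35.6 and 12.0 FPKM in ADPKD, against 44.5 and 91.3 FPKM in WT. Scd2 was thus above WT in both ADPKD libraries and Scd1 below it, with ratios of means of 1.93 and 0.350. The log2 fold change was 0.96 (95% interval 0.09 to 1.83, limma adjusted p = 0.121) for Scd2 and -1.57 (95% interval -3.20 to 0.06, limma adjusted p = 0.154) for Scd1. For Scd1 it ran from -2.32 without ADPKD replicate 1 to -0.83 without ADPKD replicate 2, and for Scd2 from 0.56 without WT replicate 2 to 1.35 without WT replicate 1. Both paralogs had wide spreads, and counting kept multi-mapping reads, so how reads divide between them is uncertain. Elovl6, which extends palmitate to stearate, had 6.96 and 5.81 FPKM in ADPKD, against 4.73 and 3.05 FPKM in WT, with all ADPKD values above WT (log2 fold change 0.61, limma adjusted p = 0.149).

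**Figure D3:**
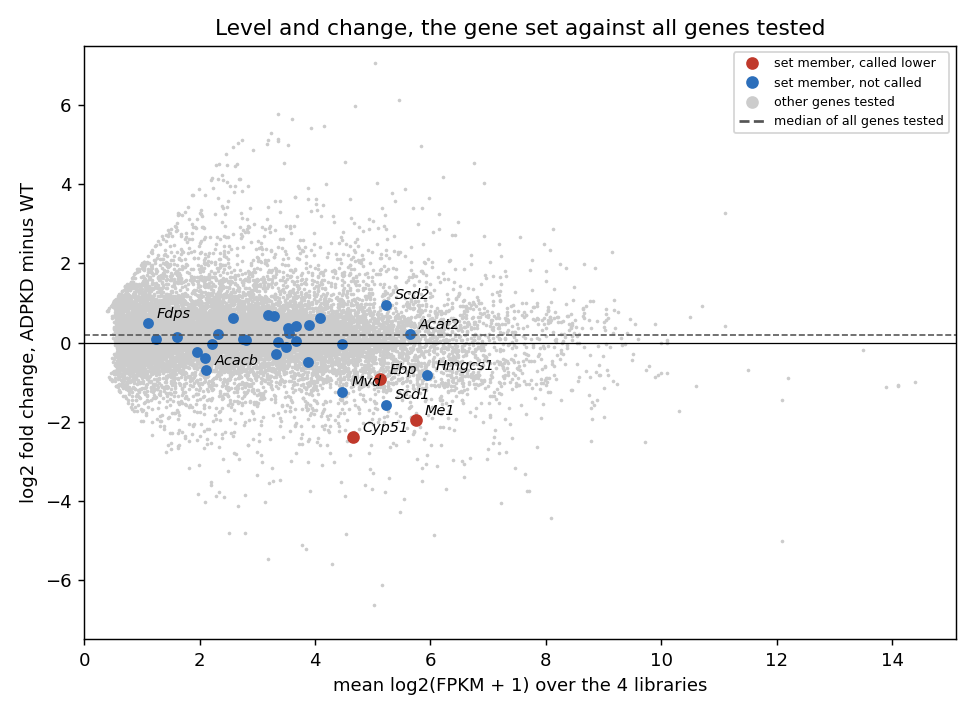
log2 fold change of ADPKD minus WT against mean log2(FPKM + 1) over the 4 libraries for all 17001 genes tested (grey), with set members in colour. Members lie on both sides of the dashed median of 0.183, and the 3 called members are the red points below it.

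In ADPKD, 28 of 32 members (87.5%) were lower in replicate 2 than in replicate 1, against 66.0% of all genes tested, with a median ratio of FPKM + 1 of 0.754 against 0.913. In WT, 20 of 32 members (62.5%) were lower in replicate 2, against 54.7% of all genes, with a median ratio of 0.939 against 0.978. ADPKD replicate 2 was also the library with high Xist, and macrophage markers summed to 547 and 1297 FPKM in ADPKD replicates 1 and 2. Neutrophil markers summed to 45.0 and 427 FPKM in the same libraries, and their part in the difference was not tested.

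Markers of some kidney cell types moved with the groups. Proximal tubule markers summed to 916 and 759 FPKM in ADPKD, against 2701 and 3079 FPKM in WT, with 8 of 11 called lower and none at 0. Thick ascending limb markers summed to 577 and 352 FPKM in ADPKD, against 1028 and 1350 FPKM in WT, with 2 of 5 called lower. Distal convoluted tubule markers summed to 36.0 and 30.1 FPKM in ADPKD, against 123 and 116 FPKM in WT, with 2 of 3 called lower. These 3 nephron segments thus had lower marker sums in ADPKD. Principal cell markers of the collecting duct summed to 564 and 567 FPKM in ADPKD, against 719 and 558 FPKM in WT, which overlapped, with 0 of 4 called. Intercalated cell markers summed to 50.7 and 21.3 FPKM in ADPKD, against 110 and 85.3 FPKM in WT, with 1 of 4 called lower. Endothelial markers summed to 15.8 and 25.8 FPKM in ADPKD, against 32.9 and 32.2 FPKM in WT. Podocyte markers summed to 18 and 46 FPKM in ADPKD, against 66.2 and 52.4 FPKM in WT. These sums were also lower in ADPKD. However, none of the 4 endothelial and none of the 4 podocyte markers was called by limma in either direction. Macrophage markers summed to 547 and 1297 FPKM in ADPKD, against 55.1 and 96.1 FPKM in WT, with 6 of 8 called higher. Fibroblast and myofibroblast markers summed to 400 and 303 FPKM in ADPKD, against 75.7 and 69.8 FPKM in WT, with 5 of 6 called higher. Macrophage and fibroblast markers thus moved opposite to those of the 3 segments, whereas T cell markers summed to 1.16 and 1.95 FPKM in ADPKD, against 1.74 and 1.22 FPKM in WT, and neither the 1 T cell nor the 1 B cell marker that was tested was called. In whole tissue, fewer cells of a type and less RNA per cell cannot be told apart, and the part of these shifts in the levels of Cyp51, Me1 and Ebp was not tested.

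Fat makes much of these enzymes and can adhere to a dissected kidney. The 7 adipocyte markers summed to 29.5 and 25.1 FPKM in ADPKD, against 16.0 and 14.1 FPKM in WT, with 1 of the 4 tested called higher (Plin4, a lipid droplet coat gene). Adipoq, which defines adipocytes, was at 3.86 and 0.0726 FPKM in ADPKD, against 0.197 and 0 FPKM in WT, so it was high in ADPKD replicate 1 alone. Brown adipocyte markers summed to 9.11 and 0.831 FPKM in ADPKD, against 1.09 and 0 FPKM in WT. ADPKD replicate 1 therefore had the highest fat marker sums while 28 members were higher there than in replicate 2, and the part of fat in those levels was not tested. Cyp51, Me1 and Ebp were all lower in ADPKD replicate 1 than in either WT library. The part of fat in these differences was not tested either. Adrenal cortex markers, of another sterol-making tissue beside the kidney, summed to 2.83 and 2.10 FPKM in ADPKD, against 1.36 and 1.28 FPKM in WT.

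Other genes of the same pathways were read in 6 lists of 88 genes, of which 81 were tested: 7 rose (8.64%, against 9.43% of all genes) and 8 fell (9.88%, against 4.78%). Of 10 other sterol pathway enzymes 2 fell. Acat1, the mitochondrial acetoacetyl-CoA thiolase of ketone body metabolism, had 36.4 and 39.1 FPKM in ADPKD, against 98.5 and 183 FPKM in WT (log2 fold change -1.80, SE 0.33, limma adjusted p = 0.0367). Nus1, a subunit of the enzyme that makes dolichol, had 40.7 and 40.2 FPKM in ADPKD, against 69.2 and 62.5 FPKM in WT (log2 fold change -0.69, SE 0.14, limma adjusted p = 0.0467). Neither acts on the route to cholesterol itself. Of 17 genes of SREBP processing and of insulin or LXR inputs 1 fell. That gene was Nr1h3, which encodes the oxysterol receptor LXR-alpha, an activator of Srebf1, with 9.60 and 8.15 FPKM in ADPKD, against 19.2 and 26.6 FPKM in WT (log2 fold change -1.26, SE 0.21, limma adjusted p = 0.0339). Fbxw7, a ubiquitin ligase subunit that removes active SREBP, had 4.56 and 4.88 FPKM in ADPKD, against 2.72 and 2.59 FPKM in WT, and did not pass (limma adjusted p = 0.0636).

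In the supply of acetyl-CoA, citrate and NADPH, 2 of 11 genes rose and 1 fell. Acss2, which makes cytosolic acetyl-CoA from acetate, had 5.06 and 3.22 FPKM in ADPKD, against 16.3 and 26.9 FPKM in WT (log2 fold change -2.12, SE 0.32, limma adjusted p = 0.0290). Mid1ip1, an activator of acetyl-CoA carboxylase, had 35.9 and 52.4 FPKM in ADPKD, against 14.9 and 11.7 FPKM in WT (log2 fold change 1.64, SE 0.25, limma adjusted p = 0.0290). Pgd, the NADPH-making 6-phosphogluconate dehydrogenase, had 34.1 and 29.5 FPKM in ADPKD, against 16.0 and 15.3 FPKM in WT (log2 fold change 0.97, limma adjusted p = 0.0302), and was named after its values were seen. Sources of NADPH thus went both ways, with Pgd higher and Me1 lower in ADPKD. Of 14 other desaturases and elongases 2 fell. Fads3, a desaturase family member, had 31.2 and 23.5 FPKM in ADPKD, against 52.6 and 59.7 FPKM in WT. Hacd2, a dehydratase of chain elongation, had 10.2 and 6.88 FPKM in ADPKD, against 19.0 and 26.1 FPKM in WT. The groups were apart for both, with limma adjusted p of 0.0407 for Fads3 and 0.0428 for Hacd2.

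Downstream uses of fatty acids and sterol had members in both directions. Of 12 genes of triglyceride and phospholipid synthesis 2 rose and 2 fell. Dgat2, which completes triglyceride, had 25.9 and 24.3 FPKM in ADPKD, against 54.7 and 62.7 FPKM in WT (log2 fold change -1.19, SE 0.15, limma adjusted p = 0.0243). Acsl4, which activates arachidonate, had 28.9 and 34.6 FPKM in ADPKD, against 10.2 and 7.04 FPKM in WT (log2 fold change 1.78, SE 0.23, limma adjusted p = 0.0243). The other called genes of this list, named after their values were seen, were Lpin1, a phosphatidate phosphatase (log2 fold change -0.94), and Acsl5, an acyl-CoA synthetase (0.97). Of 17 genes of sterol uptake, transfer, storage and efflux 3 rose (17.6%, against 9.43% of all genes) and none fell (against 4.78%). Their median log2 fold change was 0.573, against 0.183 for all genes tested. Abca1, the sterol efflux pump, had 9.53 and 11.7 FPKM in ADPKD, against 3.52 and 2.42 FPKM in WT (log2 fold change 1.56, SE 0.22, limma adjusted p = 0.0265). Mylip, a ubiquitin ligase that removes lipoprotein receptors, had 22.2 and 27.6 FPKM in ADPKD, against 11.8 and 12.3 FPKM in WT (log2 fold change 0.98, SE 0.17, limma adjusted p = 0.0344). Abca1 and Mylip are known LXR targets and were higher in ADPKD, whereas Nr1h3 was lower. Srebf1, which LXR-alpha activates, did not pass (log2 fold change 0.41, limma adjusted p = 0.334). Nr1h2, of the same list as Nr1h3, overlapped between the groups (log2 fold change 0.22, limma adjusted p = 0.519). The part of LXR in these levels was not tested. Npc2, the lysosomal sterol carrier, was the other gene that rose (log2 fold change 0.79, limma adjusted p = 0.0458), and was named after its values were seen. Mylip and Npc2 lost their calls under quantile normalization and under median-of-ratios scaling.

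Macrophages are rich in Abca1 and Npc2, and macrophage marker sums moved the same way as given above; their part was not tested. All 15 called genes of these lists kept their sign under the 10 alternatives. Each lost its call when any of ADPKD replicate 1, ADPKD replicate 2 and WT replicate 2 was left out, with adjusted p reaching 0.0957 (Mid1ip1) to 0.185 (Lpin1) over the alternatives, and all but Acat1, Acss2 and Acsl4 also without WT replicate 1.

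**Figure D4:**
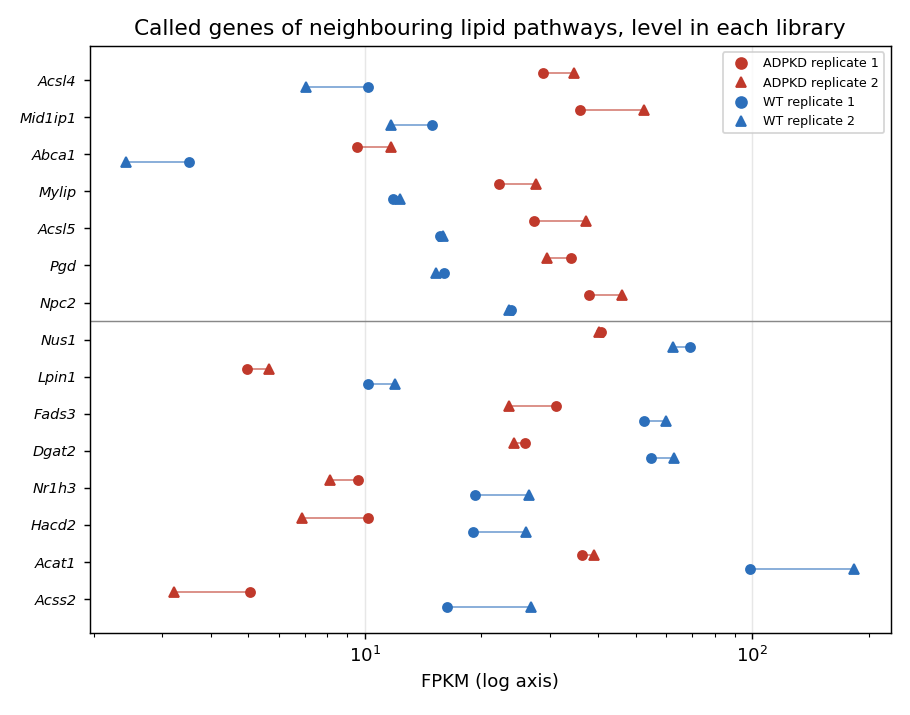
FPKM of the 15 called genes of neighbouring lipid pathways on a log axis, with 1 point per library (ADPKD replicates 1 and 2, then WT replicates 1 and 2). For each gene both ADPKD points lie on the same side of both WT points, above for 7 genes and below for 8.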

How the data were processed

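The values analysed were FPKM per gene, as deposited by the authors for 2 ADPKD and 2 WT libraries of poly(A)-selected whole kidney RNA. Bowtie2 and DESeq2 with mm10 were named, without role or version, per the submitters' processing notes. Exon lengths and positions (GRCm38) came from a deposited table made with featureCounts 1.6.0 and Ensembl release 98, which, per the file headers, counted multi-mapping reads and set no strand or pairing option. Its 16 columns of per-sample values carry library names that fit no single sample and were not used. The table had 32176 rows, and 25 rows whose names had become calendar dates were left out. FPKM times length gave whole reads for 100% of values (tolerance 0.01 reads), and 1 read on 1 kb of exon was worth 0.0501 to 0.0556 FPKM. Intervals of 95% rest on the spread between libraries.

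Genes with a mean of at least 0.5 FPKM were tested on log2(FPKM + 1) by limma 3.58.1 in R 4.3.3 with an intensity trend, two-sided, with Benjamini-Hochberg adjustment over all genes and a threshold of 0.05, so fold changes of low genes are understated. On simulated data of the same design over 16978 genes, 54.3% of genes changed 2-fold and 91.5% of those changed 4-fold were recovered, with 16 false calls. The simulation used the same fixed setting for the spread between replicates of every gene, not estimated from these libraries. These shares and false calls therefore do not carry over to the real libraries, where neither pair agreed within counting error. Alternatives were a pseudocount of 0.1, no filter, quantile and median-of-ratios scaling, limma-voom on recovered reads, a replicate block, and leaving out each library. Named genes were all members and, of each related list, the 2 with the smallest adjusted p. The members and all lists were chosen with earlier results of these data known. Counts and medians of a list are descriptions. Promoter sequences are from RefSeq.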

Additional observations from a re-analysis of the deposited data

How the results depend on the processing

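Over 10 alternatives the sign held for 287 of 320 member values and in every alternative for 20 of the 32 members. The count of members called higher, 0 as reported, was 1 with limma-voom, which called 2091 of all 17001 genes higher and 948 lower. The count of members called lower, 3 as reported, was 0 without the filter on low values, 1 with the replicate block, 4 with limma-voom and 0 to 2 when a library was left out. Of the related genes, added to these alternatives after seeing the data, 7 rose as reported, against 0 without the filter, 4 with quantile normalization, 3 with median-of-ratios scaling, 12 with limma-voom and 0 to 2 when a library was left out. The 8 that fell became 0 without the filter, 3 with the replicate block and 0 to 2 when a library was left out. The cause was not tested. Replicate numbers tie the libraries only by number: same-numbered deviations correlated at 0.188 across genes, and the block gave 1220 genes higher and 625 lower. Under the block the adjusted p was 0.0629 for Cyp51, 0.0541 for Me1 and 0.0467 for Ebp.

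The sign turned in at least 1 alternative for 12 members. With quantile normalization the log2 fold change was -0.16 for Scap, -0.16 for Mvk, -0.21 for Idi1, -0.0972 for Lss, -0.0533 for Msmo1, -0.20 for Sc5d and -0.10 for Acaca. With median-of-ratios scaling it was -0.18 for Scap, -0.00795 for Acat2, -0.11 for Mvk, -0.21 for Idi1, -0.0133 for Lss, -0.15 for Sc5d and -0.037 for Acaca. Idi1 was at -0.00498 with a pseudocount of 0.1 and -0.0145 with limma-voom. When a library was left out, the value ran -0.28 to 0.35 for Scap, -0.0468 to 0.94 for Insig1, -0.24 to 0.43 for Mvk, -0.49 to 0.49 for Idi1, -0.0665 to 0.36 for Lss, -0.26 to 0.69 for Msmo1, -0.17 to 0.087 for Hsd17b7, -0.24 to 0.35 for Sc5d, -0.60 to 0.39 for Stard4 and -0.17 to 0.0784 for Acly. Of members that kept their sign, the value ran 0.0731 to 0.75 for Srebf1, -1.35 to -0.30 for Hmgcs1, 0.34 to 1.02 for Sqle, -0.50 to -0.0473 for Fasn, -0.94 to -0.44 for Acacb, 0.36 to 0.86 for Elovl6, -2.32 to -0.83 for Scd1 and 0.56 to 1.35 for Scd2. The filter alternative tested 32151 genes instead of 17001. With 1 library left in a group, that library is assumed to vary like the other group. At 39 reads in its thinnest library, Fdps is the member that depth limits most.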
